A study of Homo sapiens with 9 samples.

Results

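The genes of the mitochondrial ribosome were examined in SW1783 cells, an established human glioma line, 24 h after transfection with one of 3 miRNA duplexes, named miR-376a*A, miR-376a*G and miR-control. Members were taken by symbol from the platform annotation, as MRPS (small subunit) or MRPL (large subunit) followed by a number and at most 1 letter from A to C. Only probe sets that name 1 gene were used, and the brightest over the 9 arrays stood for each gene. This gave 75 genes, 27 MRPS and 48 MRPL, of 12505 genes tested, and each of the 75 passed the filter on dim probe sets. MRPS24 and MRPL53 are represented only by probe sets that name several genes and are not among the 75.

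There were 3 groups of 3 arrays, one group for each duplex, and the labels call the arrays of a group biological replicates. Every group received 50 nM of its duplex with Lipofectamine RNAiMAX, and RNA was taken 24 h later. All cultures were of 1 cell line, and the labels name no untransfected cells. Nothing in the labels says whether replicates were separate cultures or days, so a p-value measures the spread between these arrays only.

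miR-376a* is the older name of the 5′ strand of the miR-376a hairpin. RNA editing by ADAR enzymes converts an adenosine of this strand to inosine, which pairs as guanosine does, and miR-376a*A and miR-376a*G are known as its unedited and edited forms. The unedited strand is shown to let a reader see the seed, as RefSeq lists it for MIR376A1 (GRCh38.p14, chr14:101040788-101040809, + strand), with the seed, bases 2 to 8, in capitals. The labels do not give the letters of the transfected duplexes.
hsa-miR-376a-5p: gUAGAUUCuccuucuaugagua

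The mitochondrial ribosome translates the few proteins encoded by mitochondrial DNA, all of them core subunits of the respiratory chain and the ATP synthase. Its RNAs come from mitochondrial DNA, whereas its proteins are encoded in the nucleus, made in the cytosol and imported. The small subunit reads the mRNA and the large subunit joins amino acids and passes the chain through a tunnel to the inner membrane. Some of the proteins have counterparts in bacterial ribosomes, and others are found only in mitochondria.

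Median deposited signal was between 18.8 and 24.0 per array. The array of miR-control replicate 1 stood apart. Its highest rank correlation with any other array over all probe sets was 0.941, against 0.969 to 0.97 for the other 8 arrays. The ratio of 3′ to 5′ signal of GAPDH, a sign of RNA integrity, was 0.91 in that array and 0.867 to 0.934 over all 9. VIM and CD44, expressed by most glioma lines, had signals of at least 2220 and 2120 in every array. The astrocyte markers GFAP and S100B did not exceed 3.75 and 2.64, near 0. SOX9 and SOX2, transcription factors of glial and neural progenitor cells, were above the filter on mean level, at 356 to 530 and 10.3 to 29.5. SOX2 was dim, with signals on either side of the filter. The other glial markers examined, NES, OLIG2 and AQP4, lay below it, at 9.56 to 21.7, 4.39 to 11.9 and 1.1 to 12.4. Of 9 markers of other cell types, 5 lay below the filter, among them PTPRC and CD14 of blood cells and EPCAM and CDH1 of epithelial cells, with at most 12.4. KRT18, PECAM1, RBFOX3 and MBP were above it, at 1040 to 1780, 57.2 to 125, 15.9 to 32.5 and 40 to 77.9. Because 1 array of the control group differed from the others, results against control are also given without it.

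A single gene of the 75, MRPS14, differed from control past the threshold, and it did so with both forms. MRPS14 encodes a small subunit protein with a bacterial counterpart, S14, which lies in the head of the subunit. Its signal was 540, 530 and 545 after miR-376a*A, 591, 576 and 503 after miR-376a*G, and 137, 192 and 143 after miR-control. All 6 miR-376a* arrays lay above all 3 control arrays, with no array between about 192 and 503. MRPS14 was 3.20-fold higher after miR-376a*A than after miR-control (log2 1.68, SE 0.13, limma adjusted p = 9.42e-05). After miR-376a*G it was 3.27-fold higher than after miR-control (log2 1.71, SE 0.13, limma adjusted p = 0.000126). The 2 forms overlapped each other and differed by -0.03 on the log2 scale, with a 95% interval from -0.31 to 0.24. Both comparisons with control share the same 3 control arrays, so they are not independent of each other. With no untransfected cells named in the labels, whether the miR-376a* duplexes raised MRPS14 or miR-control lowered it was not tested.

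The name of this probe set ends in s_at, which on this platform marks probes shared by several transcripts. A second probe set measured MRPS14 as well. It gave signals of 58.3, 73.3 and 68.9 after miR-376a*A, 58.1, 61.0 and 46.0 after miR-376a*G, and 25.4, 33.5 and 28.9 after miR-control. The miR-376a* arrays again lay above the control arrays without overlap. The log2 changes were 0.94 and 0.72, smaller than with the brighter probe set, and limma's adjusted p over all probe sets was 0.00603 and 0.021. Without miR-control replicate 1 the change of the brighter probe set was 1.64 after miR-376a*A and 1.67 after miR-376a*G (limma adjusted p = 7.74e-06 and 8.87e-06).

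**Figure D1:**
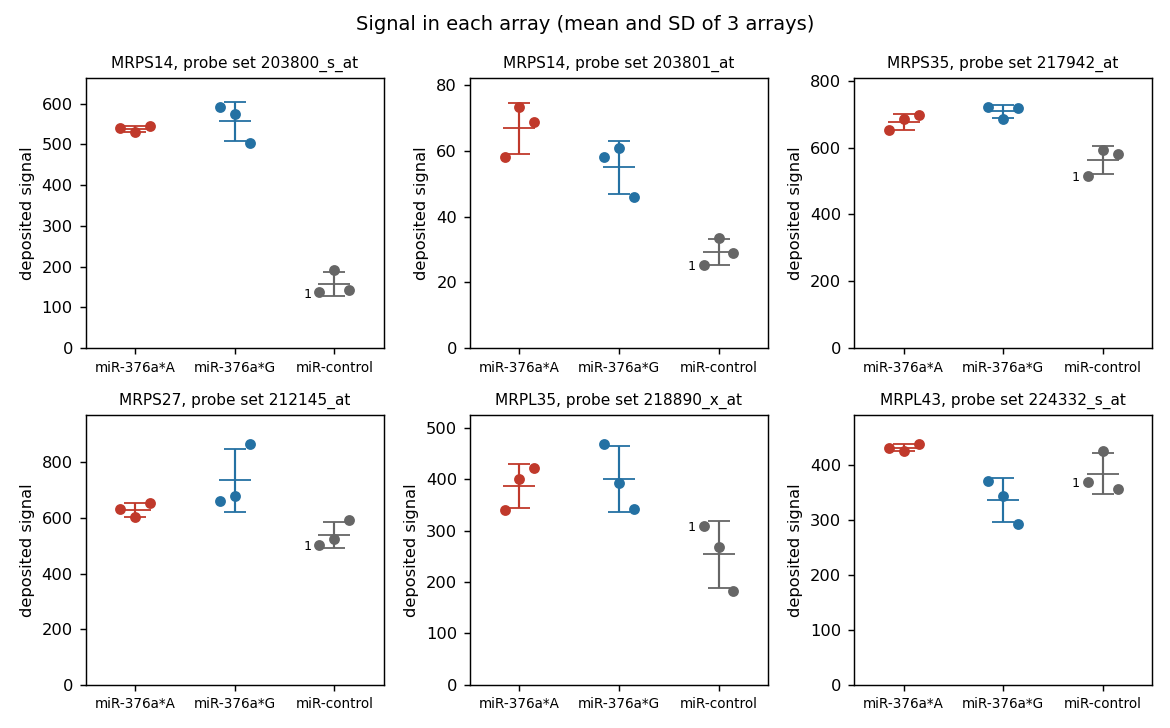
Deposited signal (linear axis from 0) of 5 mitochondrial ribosomal protein genes in each of the 9 arrays, with MRPS14 shown for both of its probe sets. Points are arrays, bars are the mean and SD of 3 arrays, and miR-control replicate 1 is marked 1. The first probe set of MRPS14 lies at 503 or above in all miR-376a* arrays and at 192 or below in all control arrays, whereas the other genes shown differ by less.

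The count of members was read against the whole array. After miR-376a*A, 1 of 75 members (1.33%) was higher than control and 0 were lower. Of all genes tested, 3.33% passed in this comparison, 1.95% higher and 1.38% lower. After miR-376a*G, 1 of 75 was higher and 0 lower, against 4.62% of all genes, 2.5% higher and 2.12% lower. At an unadjusted p under 0.05 there were 4 members (5.33%) in the first comparison and 8 (10.7%) in the second, all higher, beside 14.9% and 17.8% of all genes.

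Arrays that do not overlap were counted in the same way, on the quantile normalized values. Deposited signals can differ in this. After miR-376a*A, MRPL18 and MRPS9 lay below control without overlap when normalized, whereas their deposited signals overlapped. All miR-376a*A arrays lay above all control arrays in 8 members (10.7%) and below them in 3 (4%), beside 11.5% and 8.95% of all genes. All miR-376a*G arrays lay above all control arrays in 8 members (10.7%) and below them in 1 (1.33%), beside 12.2% and 9.49% of all genes. The shares of mitochondrial ribosomal protein genes were near or below those of all genes in each of these counts.

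Among the other 26 small subunit genes, log2 changes ran from -0.19 to 0.29 after miR-376a*A and from -0.26 to 0.42 after miR-376a*G. The median of all 27 was -0.05 after miR-376a*A and 0.04 after miR-376a*G, beside medians over all genes of 0.01 in both comparisons. After miR-376a*A 12 of 27 were above 0, and after miR-376a*G 20 of 27 were, beside 51.3% and 51.4% of all genes. The 95% interval of each of the other 26 lay within 2-fold either way in both comparisons with control.

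MRPS35, a mitochondria-specific small subunit protein, had the smallest adjusted p against control next to MRPS14. It had signals of 651, 684 and 697 after miR-376a*A, 720, 685 and 719 after miR-376a*G, and 515, 594 and 582 after miR-control. Each miR-376a* array lay above each control array, by a small margin. The log2 difference from control was 0.30 after miR-376a*G (SE 0.08, limma adjusted p = 0.0595) and 0.23 after miR-376a*A (SE 0.08, limma adjusted p = 0.186).

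MRPS27, an RNA-binding protein of the small subunit, had signals of 630, 603 and 653 after miR-376a*A, 660, 680 and 865 after miR-376a*G, and 503, 523 and 591 after miR-control. The miR-376a*G arrays did not overlap the control arrays, and 1 of them, replicate 3, stood above the rest. The log2 difference from control was 0.42 after miR-376a*G (SE 0.12, limma adjusted p = 0.0805) and 0.19 after miR-376a*A. MRPS21, the counterpart of bacterial S21, was at 1271, 1397 and 1421 after miR-376a*A, 1404, 1266 and 1071 after miR-376a*G, and 1632, 1023 and 904 after miR-control. Its control arrays spanned the values of both other groups (log2 0.29 and 0.18). At the low end were MRPS18A (-0.19), MRPS7 (-0.17) and MRPS30 (-0.16) after miR-376a*A, and MRPS31 (-0.26), MRPS12 (-0.14) and MRPS18A (-0.11) after miR-376a*G, none past the threshold. Without miR-control replicate 1, MRPS18A was at -0.03 and MRPS7 at 0.05 after miR-376a*A, and MRPS12 was at 0.01 and MRPS18A at 0.05 after miR-376a*G. Other probe sets had the opposite sign after miR-376a*G in MRPS31 (0.21), MRPS12 (0.31 and 0.12) and MRPS18A (0.23), so no direction is given for these genes.

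In the large subunit 0 of 48 genes passed in either comparison with control, with 2 at an unadjusted p under 0.05 in the miR-376a*A comparison and 5 in the miR-376a*G comparison, all of them higher. The median log2 difference was 0.05 after miR-376a*A, where 31 of 48 were above 0, and 0.07 after miR-376a*G, where 32 of 48 were. Changes ran from -0.30 to 0.59 after miR-376a*A and from -0.26 to 0.62 after miR-376a*G. The 95% interval of 47 of the 48 lay within 2-fold either way in both comparisons, and within 1.5-fold for 41 and 38 genes. Over all 75 members, 73 (97.3%) lay within 2-fold in each comparison, beside 94.8% and 93.9% of all genes. Within 1.5-fold were 66 (88%) and 62 (82.7%) members, beside 67.9% and 65.5% of all genes. All 75 members lay above the median level of the genes tested, and the part of level in these shares was not tested.

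MRPL35, which has a bacterial counterpart in L35, had the highest log2 difference of the large subunit with either form. Its signal was 339, 400 and 422 after miR-376a*A, 468, 393 and 342 after miR-376a*G, and 310, 269 and 183 after miR-control. The miR-376a* arrays lay above the control arrays, which spread over a wider range. The log2 differences were 0.59 (SE 0.21, limma adjusted p = 0.198) and 0.62 (SE 0.21, limma adjusted p = 0.138). The name of this probe set ends in x_at, which on this platform marks probes that can also bind other transcripts. The other 2 probe sets of MRPL35 gave 0.39 and 0.11 after miR-376a*A, and 0.37 and 0.31 after miR-376a*G.

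MRPL30 and MRPL19 followed. MRPL30 had signals of 353, 415 and 410 after miR-376a*A, 330, 386 and 379 after miR-376a*G, and 172, 330 and 338 after miR-control. MRPL19 had 300, 286 and 261 after miR-376a*A, 320, 336 and 302 after miR-376a*G, and 165, 285 and 231 after miR-control. In both genes miR-control replicate 1 was the lowest of the 9 arrays. The log2 differences of MRPL30 were 0.49 and 0.38, and those of MRPL19 were 0.31 and 0.47 (limma adjusted p at least 0.127). Without miR-control replicate 1 they were 0.23 and 0.12 for MRPL30, and 0.15 and 0.31 for MRPL19. With all arrays, other probe sets of MRPL30 above the filter gave 0.18, 0.31, -0.06 and 0.32 after miR-376a*A. After miR-376a*G the same probe sets gave 0.12, 0.25, -0.15 and 0.44. Another probe set of MRPL19 above the filter gave 0.21 after miR-376a*A and 0.04 after miR-376a*G. At the low end were MRPL18 (-0.30), MRPL45 (-0.28) and MRPL46 (-0.26) after miR-376a*A, with MRPL18 at -0.11 and MRPL46 at -0.09 when miR-control replicate 1 was left out. After miR-376a*G these were MRPL24 (-0.26, and -0.15 without that array), MRPL45 (-0.25) and MRPL43 (-0.22). None passed the threshold. MRPL45, which tethers the ribosome to the inner membrane, was at 467, 431 and 465 after miR-376a*A, 456, 439 and 522 after miR-376a*G, and 764, 450 and 496 after miR-control, so that 1 control array lay above all others. Without it the log2 differences were -0.06 and -0.02.

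**Figure D2:**
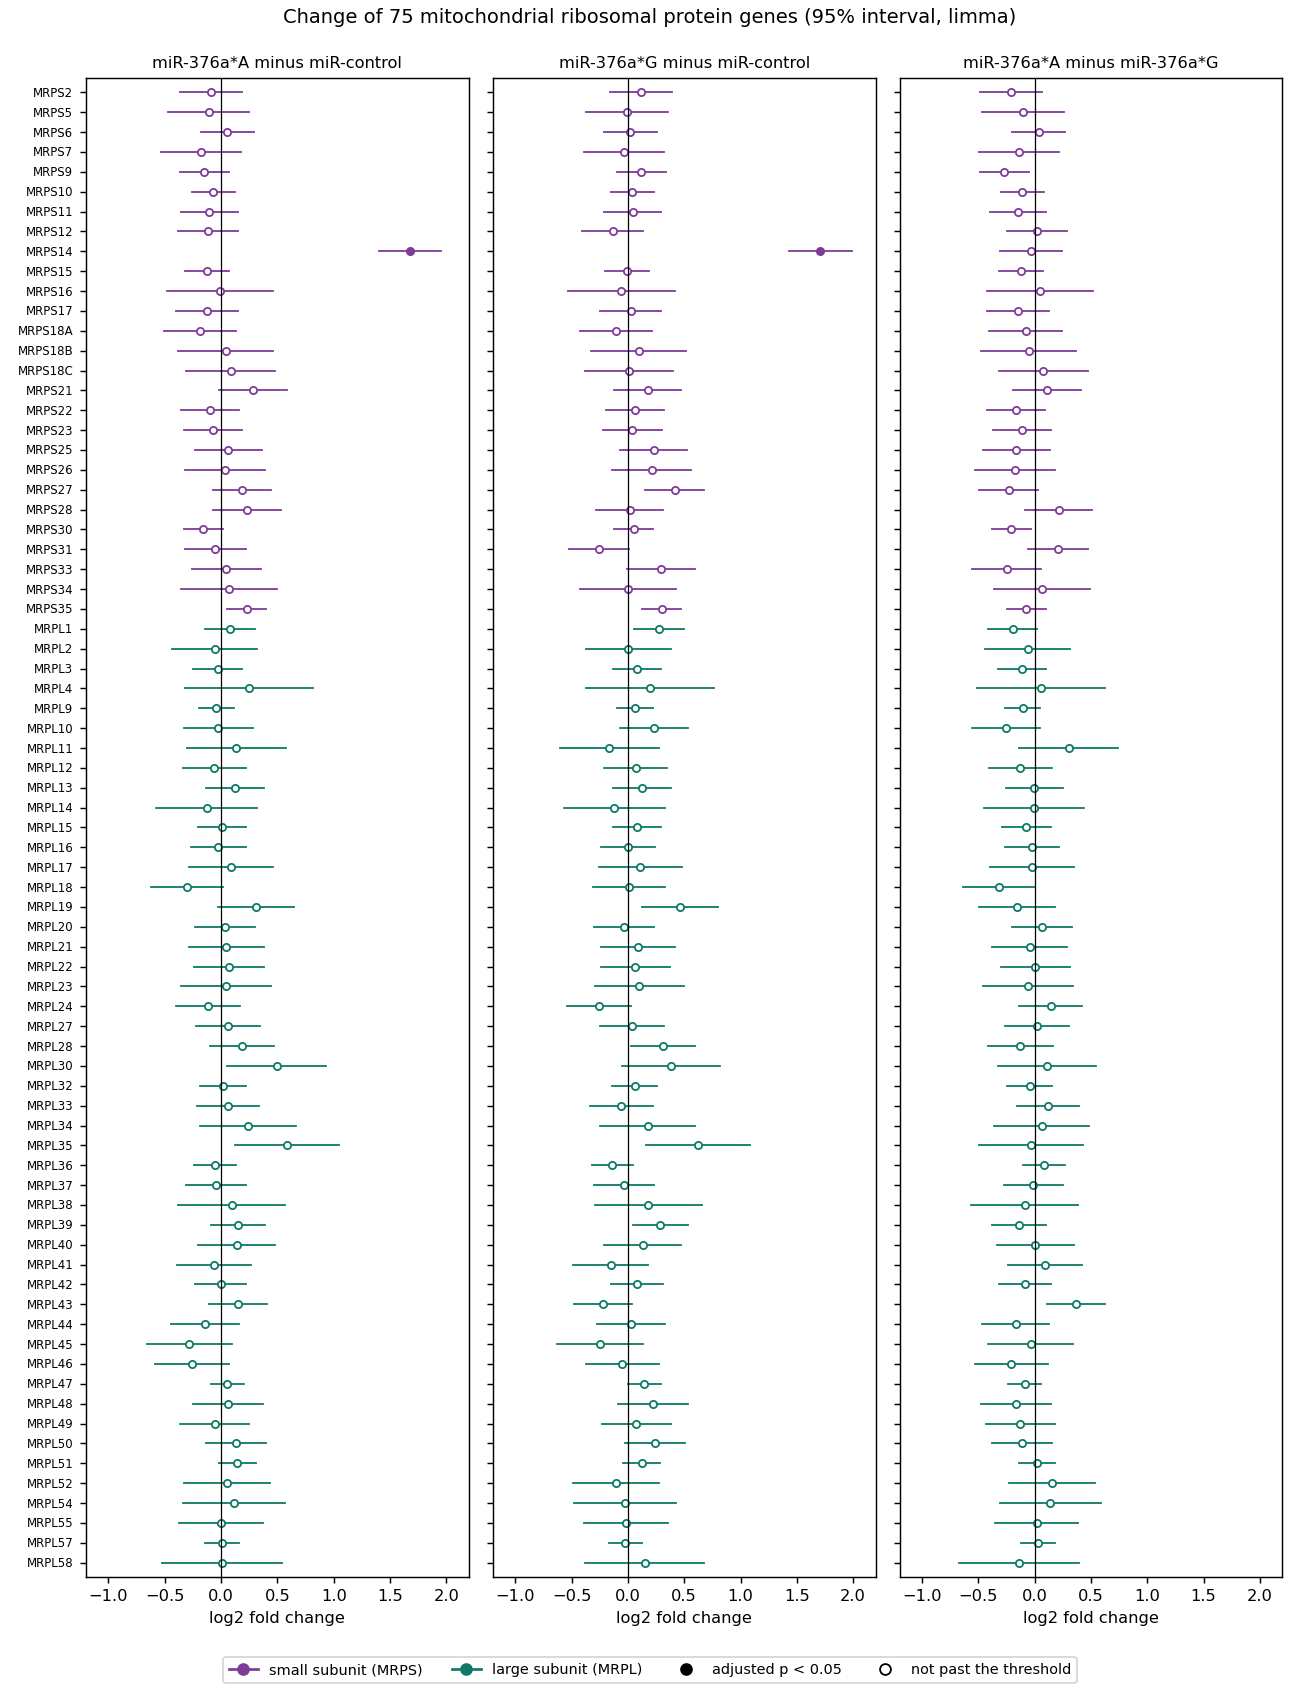
Log2 fold change (horizontal axis) of each of the 75 genes (rows) with its 95% interval from limma, for miR-376a*A minus miR-control, miR-376a*G minus miR-control and miR-376a*A minus miR-376a*G. Filled points passed an adjusted p of 0.05: MRPS14 in the first and second panels, at 1.68 and 1.71, and no gene in the third.

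Set directly against each other, the forms differed past limma's threshold in 0 of 27 small and 0 of 48 large subunit genes, beside 2.63% of all genes, 1.39% higher and 1.24% lower. At an unadjusted p under 0.05 there were 3 members (4%), beside 10.7% of all genes. The median difference, miR-376a*A minus miR-376a*G, was -0.11 in the small subunit, with 8 of 27 genes above 0, and -0.03 in the large subunit, with 18 of 48 above 0. Over all genes it was 0, with 50.1% above 0. On the normalized values, all miR-376a*A arrays lay below all miR-376a*G arrays in 19 members (25.3%), and above them in 2 (2.67%). Among all genes these shares were 15.4% and 14.1%. The 95% interval lay within 2-fold either way for all 75 genes and within 1.5-fold for 69 (92%), beside 96.5% and 74% of all genes.

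MRPL43, a mitochondria-specific protein of the large subunit, had the smallest adjusted p in this comparison. Its signal was 431, 425 and 439 after miR-376a*A and 371, 345 and 292 after miR-376a*G (log2 0.37, SE 0.12, limma adjusted p = 0.185), beside 370, 427 and 357 after miR-control. MRPL18 was at 785, 861 and 909 after miR-376a*A and 1060, 1067 and 1004 after miR-376a*G (log2 -0.31, SE 0.14, limma adjusted p = 0.484), beside 1623, 912 and 865 after miR-control. Neither gene's miR-376a* groups overlapped, yet neither passed over all genes. The other 2 probe sets of MRPL43 gave 0.35 and 0.01.

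MRPS9, with a bacterial counterpart in S9, had signals of 146, 155 and 151 after miR-376a*A and 188, 177 and 191 after miR-376a*G (log2 -0.27, SE 0.10, limma adjusted p = 0.277). MRPS30 had 603, 611 and 666 after miR-376a*A and 695, 739 and 731 after miR-376a*G (log2 -0.21, SE 0.08, limma adjusted p = 0.312). Both were lower in every miR-376a*A array. When miR-control replicate 1 was left out, which here alters the shared estimate of the spread only, MRPL43, MRPL18 and MRPS9 passed (limma adjusted p = 0.0399, 0.00764 and 0.0413), 3 of 75 members (4%), 1 higher and 2 lower, against 9.68% of all genes, 5.11% higher and 4.57% lower. The other genes at the ends of the range were MRPS33 (-0.25), MRPS27 (-0.23), MRPL10 (-0.26) and MRPL46 (-0.21) on the lower side. On the higher side were MRPS28 (0.21), MRPS31 (0.20), MRPS21 (0.11), MRPL11 (0.30) and MRPL52 (0.16). Another probe set of MRPS31 gave -0.27, and the mean of its probe sets -0.03, so its direction depended on the probe set.

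To compare arrays, each gene was set against its own mean over the 9 arrays. The median of the small subunit genes on this log2 scale was -0.09, -0.05 and 0.01 in the miR-376a*A arrays, 0.11, 0.05 and 0.02 in the miR-376a*G arrays, and 0.23, -0.03 and -0.19 in the miR-control arrays. The large subunit genes gave -0.05, 0.01 and 0.03 after miR-376a*A, 0.10, 0.05 and -0.02 after miR-376a*G, and 0.21, -0.06 and -0.21 after miR-control. Both subunits were thus highest in miR-control replicate 1 and lowest in miR-control replicate 3, with the treated arrays between. The median over all genes stayed between -0.02 and 0.03 in each array.

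Counted by gene, 45 of the 75 members (60%) had their highest value of the 9 arrays in miR-control replicate 1, where 33.9% of all genes did. In miR-control replicate 3, 39 members (52%) had their lowest value, beside 15.4% of all genes, and 2 of 75 lay above their own mean, beside 48.5% of all genes. The median of 51 cytosolic ribosomal protein genes was 0.02, 0.01 and -0.01 in the control arrays. These genes varied less in general, with a median SE of the group differences of 0.05 against 0.13 for the members. The reason for this was not tested. The median SD within a group was 0.08 for small and 0.07 for large subunit genes after miR-376a*A, 0.10 and 0.11 after miR-376a*G, and 0.23 and 0.26 after miR-control. Over all genes it was 0.09, 0.10 and 0.24 in the same order, so with all arrays the members' spread within groups was near that of all genes. Between miR-control replicates 2 and 3 alone it was 0.13 for small and 0.15 for large subunit genes. That was wider than the 0.10 of all genes. Median signal was 24.0 and the highest signal 7191 in miR-control replicate 1, against at most 21.3 and 4374 in the other arrays, and their part in these differences was not tested.

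**Figure D3:**
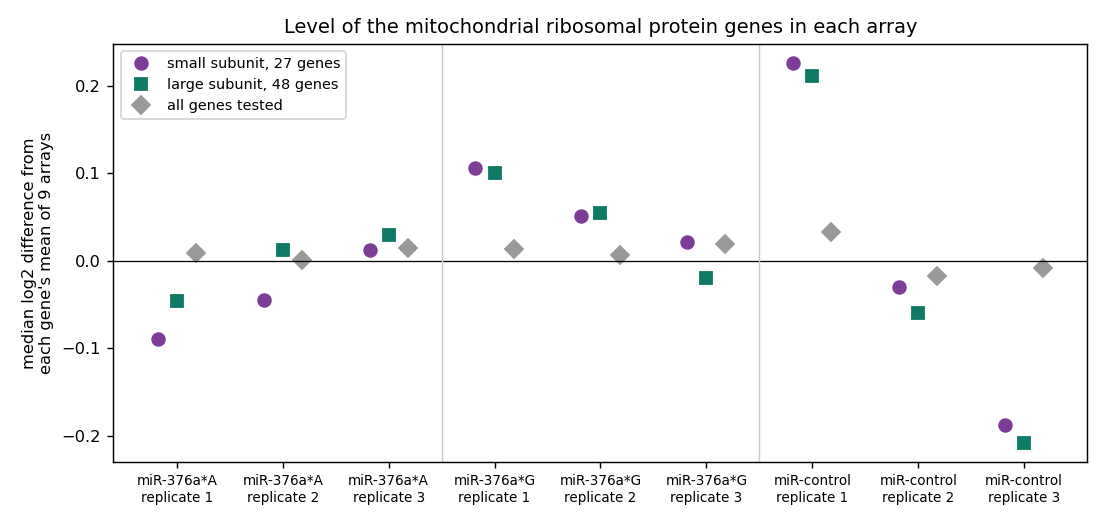
Median log2 difference of the small subunit genes, the large subunit genes and all genes from each gene's mean over the 9 arrays (vertical axis), for each array (horizontal axis). The miR-control arrays run from 0.23 and 0.21 to -0.19 and -0.21, and the miR-376a*A and miR-376a*G arrays lie between -0.09 and 0.11.

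Leaving out either of these control arrays moved the group differences in opposite directions. Without miR-control replicate 1 the medians were 0.07 (small) and 0.11 (large) after miR-376a*A, and 0.18 and 0.16 after miR-376a*G. Without miR-control replicate 3 they were -0.14 and -0.06 after miR-376a*A, and -0.07 and -0.05 after miR-376a*G. The signs of the subunit medians against control therefore rested on which control arrays were used.

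Without miR-control replicate 1, limma called 8 of 75 members (10.7%) higher after miR-376a*A and 17 (22.7%) higher after miR-376a*G, and 0 lower in either. Of all genes 13.3% and 17% were then called: 6.93% and 8.52% higher, and 6.42% and 8.47% lower. After miR-376a*A the genes were MRPS14, MRPS18B (0.31), MRPS21 (0.45), MRPL13 (0.27), MRPL17 (0.31), MRPL28 (0.32), MRPL35 (0.79) and MRPL38 (0.38), with limma adjusted p of at most 0.047. After miR-376a*G they included MRPS14, MRPS18B (0.36), MRPS35 (0.25), MRPS27 (0.38), MRPL48 (0.38), MRPL35 (0.82) and MRPL58 (0.48), a peptidyl-tRNA hydrolase built into the large subunit. Besides MRPS14 the largest of these changes was 0.82. The 2 control arrays left include the one in which the members were lowest, and without that array instead 1 member was called with each form, in the small subunit.

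**Figure D4:**
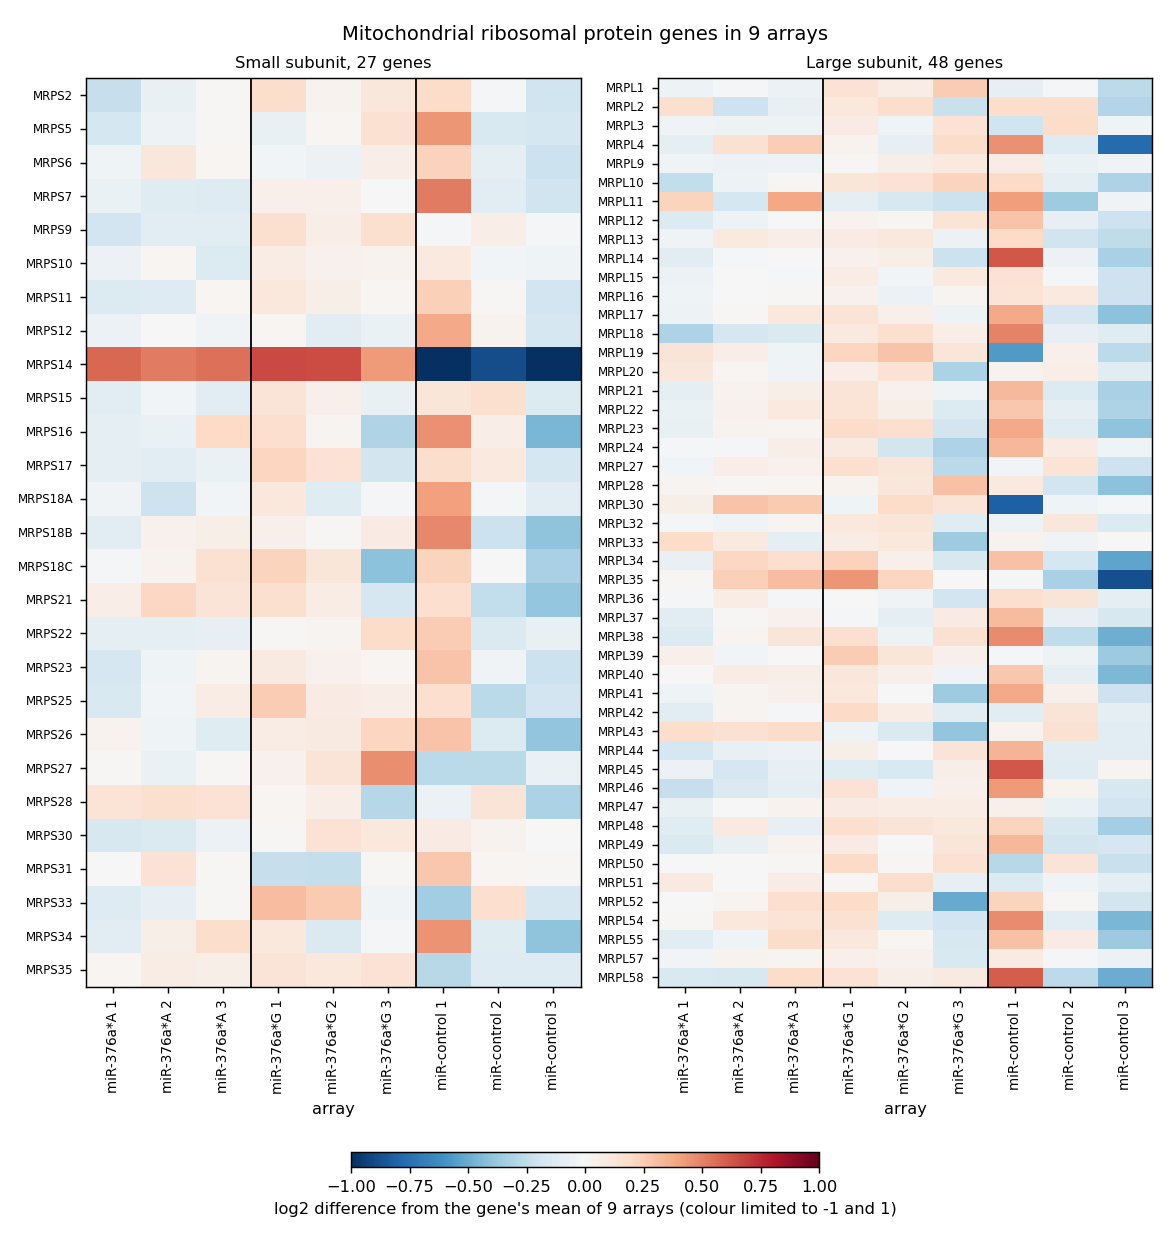
Each of the 27 small (left) and 48 large subunit genes (right) in 9 arrays (columns), coloured by the log2 difference from the gene's mean over the arrays, with colour limited to -1 and 1. MRPS14 separates the miR-376a* arrays from the control arrays. Most other rows are red in miR-control replicate 1 and blue in miR-control replicate 3.

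By place in the ribosome, genes were put in groups after the values were seen. MRPS14 was the only member called against control with all arrays, so a group without it could hold no call. The 6 proteins at the rim of the exit tunnel or tethering it to the membrane (MRPL17, MRPL22, MRPL23, MRPL24, MRPL45 and MRPL47) had log2 differences of -0.28 to 0.09 after miR-376a*A and -0.26 to 0.14 after miR-376a*G. The 4 proteins of the stalks that contact tRNA and translation factors (MRPL1, MRPL10, MRPL11 and MRPL12) lay between -0.06 and 0.13 after miR-376a*A and between -0.17 and 0.27 after miR-376a*G. Of 4 proteins grouped from the head of the small subunit, MRPS7, MRPS9 and MRPS10 did not pass against control with all arrays, and MRPS14 did. MRPS18A and MRPS30, which sit in the large subunit despite their symbols, had -0.19 and -0.16 after miR-376a*A, and -0.11 and 0.05 after miR-376a*G.

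Split by origin, the 16 MRPS genes with bacterial counterparts had a median of -0.10 after miR-376a*A and 0.02 after miR-376a*G. Here, as in all counts by subunit, genes were assigned by symbol, so MRPS18A and MRPS30 are counted with the MRPS genes. The 11 mitochondria-specific MRPS genes had 0.05 and 0.07. In the large subunit the medians were 0.05 and 0.07 for 30 genes with counterparts, and 0.05 and 0.03 for 17 mitochondria-specific genes, with MRPL58 in neither set. MRPS14, the only member called against control with all arrays, was among the 16 MRPS genes with bacterial counterparts.

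Other probe sets existed above the filter for 28 members, 49 in all. Their sign matched the brightest probe set in 29 of 49 after miR-376a*A and 33 of 49 after miR-376a*G. The second probe set of MRPS14 was the only one of these past the threshold after miR-376a*A. After miR-376a*G a second probe set of MRPS25 passed too, at 59.9, 55.5 and 63.5 after miR-376a*G against 32.04, 36.4 and 38.3 after miR-control (log2 0.62, limma adjusted p = 0.0203 over all probe sets). The brighter one of MRPS25 gave 0.23 and the other gave -0.01, neither past the threshold, so the probe sets of this gene disagreed.

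The promoters of the members were searched because genes of this group are known to share activators, among them YY1, GABPA, NRF1 and MYC. RefSeq (GRCh38.p14) gave a window of 250 bases before to 50 after the start for 67 of the 75 genes. The YY1 motif, in the letters capitalised in the first 4 sequences shown, was found on either strand in 9 of 67 windows (13.4%), beside 0.919% of 27305 promoters. The ETS motif CCGGAAGT, bound by GABPA, was in 14.9% and 4.35%, the NRF1 motif, with any base in place of the sixth capital of the fifth sequence, in 8.96% and 6.05%, and the E-box CACGTG, bound by MYC, in 13.4% and 7.28%. The members' windows held a median of 24 CG pairs, beside 13 in all promoters, and the part of CG content in these shares was not tested. The window of MRPS14 held none of the 4 motifs in these exact letters.

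Of the 9 YY1 matches, 8 began 6 to 35 bases after the start, in the orientation of the gene, and that of MRPL36 lay before it on the other strand. The sites of 4 members are given to show this shared feature, and an NRF1 match (MRPL57) for its letters, with each motif in capitals. Windows are from RefSeq, GRCh38.p14, written in the direction of the gene. They lie at chr6:42217832-42217861 (MRPS10, - strand), chr6:30617854-30617883 (MRPS18B, + strand), chr5:44808951-44808980 (MRPS30, + strand) and chr17:75904858-75904887 (MRPL38, - strand), and the NRF1 match at chr13:21176574-21176603 (MRPL57, + strand). The YY1 motif begins 9, 23, 13 and 6 bases after the start in this order, and none of these genes passed in any comparison with all arrays.
MRPS10: gggaccggcAAGATGGCGGCgcggacagcg
MRPS18B: gcgtacgtcAAGATGGCGGCgtctgtatta
MRPS30: tcgcgggcaAAGATGGCGGCggccaggtgt
MRPL38: gccggagggAAGATGGCGGCgccctggtgg
MRPL57: cctcggctctGCGCAGGCGCagtcctctct

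Other genes of mitochondrial translation were taken from lists of known components. Of 20 mitochondrial aminoacyl-tRNA synthetase and amidotransferase genes 18 were measured, and 1 of them (5.56%), LARS2, was lower after miR-376a*A than after miR-control, beside 1.38% of all genes. LARS2 charges mitochondrial leucine tRNA. Its signal was 176, 184 and 176 after miR-376a*A, 276, 288 and 295 after miR-376a*G, and 263, 307 and 309 after miR-control. All miR-376a*A arrays lay below the arrays of both other groups, which overlapped. LARS2 fell by 0.68 on the log2 scale after miR-376a*A against control (SE 0.09, limma adjusted p = 0.00319) and was lower than after miR-376a*G (log2 -0.61, SE 0.09, limma adjusted p = 0.00648). After miR-376a*G against control the difference was -0.07 (limma adjusted p = 0.772). A second probe set of LARS2 gave -0.45, -0.32 and -0.13 for these 3 differences.

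WARS2, which charges mitochondrial tryptophan tRNA, had signals of 135, 148 and 146 after miR-376a*A, 69.7, 70.7 and 79.3 after miR-376a*G, and 93.9, 87.2 and 117.1 after miR-control. The 3 groups did not overlap. WARS2 was higher after miR-376a*A than after miR-376a*G (log2 0.83, SE 0.12, limma adjusted p = 0.00418). Against control it was at 0.48 after miR-376a*A (limma adjusted p = 0.061) and -0.35 after miR-376a*G (limma adjusted p = 0.141). Another probe set of WARS2 gave 0.23 between the forms.

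In the remaining lists limma called 0 genes in each of the 3 comparisons, and the counts at an unadjusted p under 0.05 follow in the order miR-376a*A against control, miR-376a*G against control and miR-376a*A against miR-376a*G. Over all genes 14.9%, 17.8% and 10.7% had such a p. Of 13 measured mitochondrial translation factors these were 0, 0 and 1. Of 26 assembly factors of the mitochondrial ribosome they were 1, 6 and 3 (3.85%, 23.1% and 11.5%). Of 21 genes of mitochondrial DNA and RNA upkeep they were 1, 2 and 1, and of 5 mitochondrial ribosome subunits listed with other names, MRPL58 included, 0, 0 and 0. The 51 cytosolic ribosomal proteins had 3, 3 and 2, with median log2 differences of 0.02, -0.02 and 0.02.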

How the data were processed

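Signal of 9 Affymetrix arrays of SW1783 RNA was analysed. The authors deposited 1 linear intensity (signal) for each probe set and array. Each array's mean after trimming 2% at each end was 100.01 to 100.013, which shows a scaling of each array to the same level. The submitters' processing notes name GCOS 1.4.0.036; how probes were summarised is not given in the sources used here. Groups of 3 arrays, 1 of them apart from the rest in the control group, limit the precision.

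Intensities were turned into log2(signal + 16) and quantile normalized between arrays. Of 54675 probe sets, 41097 had 1 gene symbol, 1801 several and 11777 none in the platform annotation used here. Probe sets below the 50th percentile of mean level were left out, and the brightest remaining one stood for each gene. Fold changes are on the log2(signal + 16) scale and understate changes of dim genes; signals are printed as deposited. The 3 groups were fitted together in R 4.3.3 with limma 3.58.1 (lmFit, eBayes with an intensity trend), with Benjamini-Hochberg adjustment over 12505 genes and a threshold of 0.05. The procedure was tested on simulated data, in which no array was made to stand apart from the rest. Alternatives covered normalization, pseudocount, filter, arrays fitted, weights, trend, probe sets, replicate block and each array left out.

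Named genes are those past the threshold, the 3 highest and 3 lowest of each subunit and comparison, members whose probe sets disagree in sign with one past the threshold, and up to 4 called genes of each other list. The members and lists were chosen with earlier results of these data known. Same-numbered arrays of miR-376a*G and miR-control deviated together (r of 0.156, 0.187 and 0.125 over genes), all over 0.1. Those of miR-376a*A and miR-control did not (r of -0.335, 0.032 and -0.361). Nor did those of miR-376a*A and miR-376a*G (r of -0.091, -0.098 and -0.031). An alternative fit, the replicate block, treated same-numbered arrays of all 3 groups as paired.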

Additional observations from a re-analysis of the deposited data

Results flagged for a closer look

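Of 18 genes of mitochondrial tRNA charging, 2 had changes against control that differed between the forms, 1 higher (5.56%) and 1 lower (5.56%), by limma's direct test of miR-376a*A against miR-376a*G over all genes, where 1.39% were higher and 1.24% lower. For LARS2 the difference was -0.608 on the log2 scale (-0.68 after miR-376a*A and -0.07 after miR-376a*G, limma adjusted p = 0.00648). For WARS2 it was 0.828 (0.48 and -0.35, limma adjusted p = 0.00418). With all arrays, 0 of the 75 mitochondrial ribosomal protein genes passed this test in limma, and 3 had an unadjusted p under 0.05. Groups of 3 arrays were not screened for single stray values.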

How the results depend on the processing

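MRPS14 stayed past the threshold against control in all 19 alternatives with both forms, at 1.31 to 1.80 (adjusted p 2.81e-07 to 0.00293) after miR-376a*A and 1.21 to 1.83 (3.59e-07 to 0.00535) after miR-376a*G. LARS2 and WARS2 kept their calls between the forms in all 19. With the replicate block, small and large subunit counts were 1 and 0 after miR-376a*A, 1 and 0 after miR-376a*G, and 0 and 0 between the forms, so no call among the members changed; over all genes the block gave 360 calls after miR-376a*G, against 578 without it. Array weights gave 4 small and 4 large subunit genes after miR-376a*A, 7 and 10 after miR-376a*G, and 4 and 2 between the forms, while 18.5%, 19.4% and 13.2% of all genes were called. Averaging probe sets gave 1 large subunit gene after miR-376a*A, and 2 small and 1 large after miR-376a*G. Fitting only the 6 arrays compared gave 1 small and 2 large between the forms, with 10.3% of all genes called. Leaving out 1 array gave 1 to 3 small and 0 to 5 large after miR-376a*A, 1 to 7 and 0 to 10 after miR-376a*G, and 0 to 1 and 0 to 2 between the forms; all the highest counts came without miR-control replicate 1, and MRPL19 passed after miR-376a*G (0.62) without miR-control replicate 2. The cause of these differences was not tested. Leaving out 1 array moved the small and large subunit medians between -0.14 and 0.07 and between -0.06 and 0.11 after miR-376a*A, and between -0.07 and 0.18 and between -0.05 and 0.16 after miR-376a*G. Of 817 comparisons of single named genes with an alternative, 787 kept their side of the threshold, 30 newly passed and 0 were lost. Values that had not passed could turn sign, as MRPS12 after miR-376a*G did with probe sets averaged (0.10).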
